A study of Mus musculus with 4 samples.

Results

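Steroid hormones are made from cholesterol by a short chain of proteins, and 6 genes of that chain are described here in the fetal mouse gonad: Scarb1, Star, Cyp11a1, Fdx1, Hsd3b1 and Cyp17a1. They were chosen by name and are 6 of the 19321 genes of the deposited table. The gonads came from C57BL/6 mouse embryos, labelled XX, at 4 embryonic stages, labelled E11.5 for the earliest, then E12.5, then E13.5, with E14.5 the latest, and with no treatment and no altered allele named in the labels. Each stage is 1 library of single cells made with the 10x Chromium 3′ kit, version 2, from gonads dissociated with TrypLE, and the labels do not say how many embryos went into it. The question the design allows is how the level of each gene differs between cell classes and between stages.

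SCARB1 is a cell-surface receptor that takes up cholesterol from high-density lipoprotein, and STAR carries cholesterol to the inner mitochondrial membrane. There CYP11A1 cuts the side chain to give pregnenolone, with electrons passed to it by the ferredoxin FDX1. HSD3B1 then turns pregnenolone into progesterone, and CYP17A1 turns C21 steroids into androgen precursors, which aromatase (Cyp19a1) converts to estrogens. In the fetal mouse, the testis and the adrenal gland are the known sites of steroid synthesis, and the fetal ovary is known for making very little.

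Every cell was put into a class by the genes for which it had at least 1 UMI (unique molecular identifier, 1 counted RNA molecule). Supporting cells, the lineage that gives granulosa cells, had at least 3 of Fst, Wnt4, Wnt6, Irx3 and Runx1. Interstitial cells had Col1a1 with Tcf21, surface epithelium cells had Upk3b with Krt19 or Krt7, and germ cells had at least 3 of Dazl, Ddx4, Dnd1, Mael, Dppa5a and Mov10l1. Of 18774 cells kept, the supporting class held 2105, 2081, 1737 and 668 in stage order, interstitial 295, 207, 595 and 203, surface epithelium 597, 561, 390 and 342, and germ 233, 606, 717 and 2262. Cells that met several rules (164, 290, 402 and 485) or none (1380, 896, 893 and 665) stayed out of the class sums. The supporting label was checked against genes that the rule did not use. Kitl had a UMI in 90.0% to 96.5% of supporting cells and Amhr2 in 90.4% to 97.7%, but Foxl2, a defining granulosa gene, had only 4, 4, 7 and 1 UMIs in the class.

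The median cell of a library held 11361 to 14258 UMIs, and library totals ran from 69458291 to 80377418. Between 19 and 36 cell barcodes were shared by each pair of libraries. The E14.5 library goes against its label: a UMI of Ddx3y, Eif2s3y, Uty or Kdm5d, which are Y-linked, was found in 899 of its 4625 kept cells (19.4%) and in 0 cells of the other stages, where 0 cells allow a share of up to 0.0646%. Of these 899 cells 655 also had a UMI of Xist, the X-inactivation RNA. Among the 668 supporting cells of the library 163 had a Y-linked UMI, and all 668 had a UMI of Xist. In CPM, defined below, Xist stood at 3396 (3316 to 3478) in these 163 cells and 3216 (3170 to 3262) in the other 505. A Y-linked UMI is therefore not taken as the mark of an XY cell, and the sex of each cell was not tested. The 4 changes called up to E14.5 are also given without the cells with a Y-linked UMI. With 1 library per stage, stage and library cannot be told apart, no test between stages is possible, and every interval below is a 95% interval that covers counting error only.

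Levels are UMIs per 1000000 UMIs of a class (CPM). Levels of a pair of sums were called different when their sums held at least 50 UMIs, the higher was at least 10 CPM, the ratio was at least 2 and its interval left out 1. Between E11.5 and E14.5, 4 of the 24 combinations of gene and class passed: Cyp11a1 fell and Hsd3b1 rose in supporting cells, Star rose in surface epithelium, and Fdx1 rose in germ cells. Many of the 24 were under the minimums of UMIs or CPM and could not pass. These were Cyp11a1 and Hsd3b1 outside supporting cells, Star outside surface epithelium, and Cyp17a1 in every class. In the interstitial class only Fdx1 and Scarb1 met the minimums. Of all genes with enough UMIs, 7.64% passed as higher and 3.25% as lower in supporting cells, 6.26% as higher in surface epithelium, 24.8% as higher in germ cells, and 8.14% in either direction in the interstitial class, where no member passed. In supporting cells this made 642 genes higher and 273 lower (70.2% higher), against 493 and 374 (56.9% higher) when the libraries were scaled by median-of-ratios size factors instead.

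**Figure D1:**
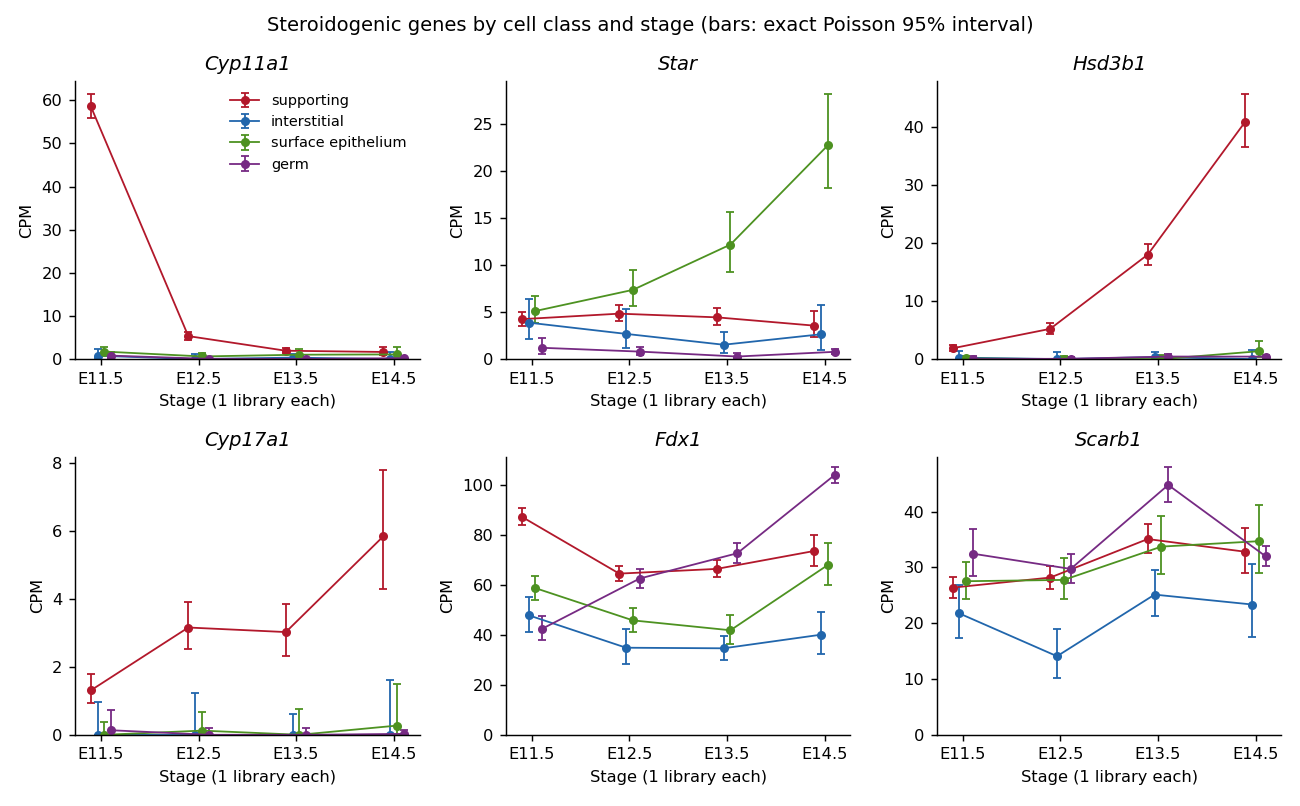
Level of each of the 6 genes (vertical axes, CPM, linear, each with its own range) at the 4 stages (horizontal axes, 1 library each) in the supporting, interstitial, surface epithelium and germ classes; bars are exact Poisson 95% intervals. Cyp11a1 starts at 58.6 CPM in supporting cells and Hsd3b1 ends at 40.9 CPM there, while Star reaches 22.8 CPM in surface epithelium and Fdx1 104 CPM in germ cells.

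Scarb1 (chr5:125277087-125341094, minus strand; this and the other gene positions are from GENCODE vM21, build GRCm38) was found in every class at every stage. In supporting cells it stood at 26.4, 28.2, 35.1 and 32.8 CPM in stage order. Interstitial cells had 21.7, 14.1, 25.1 and 23.3 CPM, surface epithelium 27.5, 27.8, 33.7 and 34.7, and germ cells 32.4, 29.7, 44.8 and 32.0. The highest of these was the germ class at E13.5 and the lowest the interstitial class at E12.5. Between the first and last stage no change was called in any class, with log2 ratios of 0.31 (0.11 to 0.52), 0.10 (-0.42 to 0.62), 0.33 (0.02 to 0.64) and -0.02 (-0.22 to 0.18) in that order. The class difference that was called within a stage was supporting over interstitial cells at E12.5, at a log2 ratio of 1.00 (0.55 to 1.49), where 11.7% of all genes were higher in supporting cells. Endothelial cells, which met none of the 4 rules, had 48.9, 51.1, 63.3 and 61.4 CPM of Scarb1, above every one of the 4 classes at each stage.

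Star (chr8:25806555-25815982, plus strand) had its highest level of the 4 classes at E14.5, in surface epithelium and not in supporting cells. Surface epithelium is the layer of cells that covers the gonad. There it stood at 5.11, 7.37, 12.2 and 22.8 CPM in stage order, from 50, 60, 60 and 84 UMIs. It rose 4.45-fold between E11.5 and E14.5 (log2 2.15, 1.63 to 2.69). No single step between neighbouring stages was called, where 2.09%, 2.09% and 3.47% of all genes changed in either direction. The share of surface epithelium cells with a Star UMI was 6.53%, 7.84%, 12.8% and 19.9%, and 2.35%, 3.92%, 5.90% and 10.8% after every cell was thinned to 5000 UMIs. No cell of the class held more than 3 Star UMIs at any stage. The 10% of cells with the most held 100%, 100%, 81.7% and 59.5% of the Star UMIs in stage order. Without the cells with a Y-linked UMI the rise was 2.07 on the log2 scale. The summed level of 4 erythroid markers in the class, none at 0 apart from Hemgn at E13.5, was 168, 1527, 1293 and 9198 CPM, and without cells with a UMI of Alas2, Hemgn or Hsd3b6 the rise was 2.25. The 4 perivascular markers summed to 14.01, 15.7, 20.3 and 67.5 CPM, with Rgs5 at 0 at E14.5, and the 8 supporting markers to 366, 387, 470 and 748 CPM, with Foxl2 at 0 at every stage; their part in the rise was not tested.

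In supporting cells Star stayed low, at 4.25, 4.83, 4.44 and 3.56 CPM, and its change of -0.26 (-0.90 to 0.34) had an interval on both sides of 0. Interstitial cells had 3.88, 2.68, 1.53 and 2.64 CPM and germ cells 1.20, 0.797, 0.273 and 0.774 CPM. Cells of no class with 2 of the 5 supporting markers had 7.34, 10.2, 12.3 and 4.62 CPM, from 47, 38, 34 and 7 UMIs. These values were above those of surface epithelium at E11.5 and E12.5, near them at E13.5 and below them at E14.5. Supporting over surface epithelium cells, the log2 ratio was -0.27 (-0.75 to 0.23) at E11.5 and -0.61 (-1.06 to -0.14) at E12.5, both under the minimum level. At E13.5 and E14.5 Star was called lower in supporting than in surface epithelium cells, at log2 ratios of -1.46 (-1.94 to -0.96) and -2.68 (-3.35 to -2.04), where 8% and 6.61% of all genes were lower. It was also called lower in interstitial cells, at -3.00 (-4.19 to -1.98) and -3.11 (-4.59 to -1.92), where 6.39% and 8.27% were lower. Within the supporting class, cells with a UMI of Fst had less Star than those without at E11.5 (2.71 against 9.76 CPM), E12.5 (3.45 against 9.01) and E13.5 (3.54 against 9.82), with intervals of the ratio that left out 1. At E14.5 the values were 3.66 and 3.22 CPM, with an interval that held 1. This split by a class marker, like the other splits of a class below, was chosen after values were seen and is a description.

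The 68 surface epithelium cells with a Star UMI at E14.5 were set beside the 274 without one, as a description, since the cells were chosen by Star itself. Among genes of at least 50 CPM in either set, the largest ratios were those of Mmp11, a stromelysin (57.4 against 26.2 CPM), Tpm2, a tropomyosin (66.7 against 36.4), and Fn1, fibronectin (74.7 against 42.8). The lowest were those of Car2, a carbonic anhydrase (12.01 against 54.4 CPM), the mitotic kinase Aurka (20.02 against 62.6) and Cdkn1a, a cell cycle inhibitor (17.3 against 50.7). Median depths were 9996 and 9874.5 UMIs.

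Cyp11a1 (chr9:58006411-58027023, plus strand) was a gene of supporting cells at E11.5. Supporting cells had 58.6 CPM (55.9 to 61.4, 1794 UMIs) at E11.5 and then 5.33, 1.94 and 1.65 CPM. The log2 change between E11.5 and E12.5 was -3.46 (-3.72 to -3.21), when 2.03% of all genes fell in the class. Over all 4 stages the level fell 35.5-fold (log2 -5.15, -6.06 to -4.37). The later steps rested on 140, 41 and 13 UMIs and were under the minimum level. Without the cells with a Y-linked UMI the whole change was -4.84.

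At E11.5 the other classes had 0.776 (interstitial), 1.74 (surface epithelium) and 0.801 CPM (germ), from 3, 17 and 6 UMIs. Supporting cells exceeded them by log2 ratios of 6.24 (4.69 to 8.52), 5.07 (4.39 to 5.86) and 6.19 (5.07 to 7.64), where 11%, 11.3% and 33.6% of all genes were higher in supporting cells. By E14.5 supporting cells had 1.65 CPM (0.880 to 2.83) and surface epithelium 1.08 CPM (0.295 to 2.78), which overlap. None of the other 3 classes passed 2 CPM at any stage. The E11.5 cells that met no class rule had 7.55 CPM, from 162 UMIs, and those that met several had 5.68 CPM, from 18.

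A UMI of Cyp11a1 was found in 33.0% of E11.5 supporting cells, and then in 4.998%, 2.07% and 1.95%. At E11.5 it was found in 1.02% of interstitial and 2.58% of germ cells, the background for such a share. Thinned to 5000 UMIs, the supporting shares were 17.4%, 2.16%, 0.806% and 0.898%. The E11.5 signal was uneven: 1411 of the 2105 cells had none, 332 had 1, 127 had 2 and 235 had 3 or more, with up to 33 in a cell, and the 10% of cells with the most held 63.2% of the UMIs. Cells with 3 or more numbered 9 at E12.5 and 0 at E13.5 and E14.5.

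**Figure D2:**
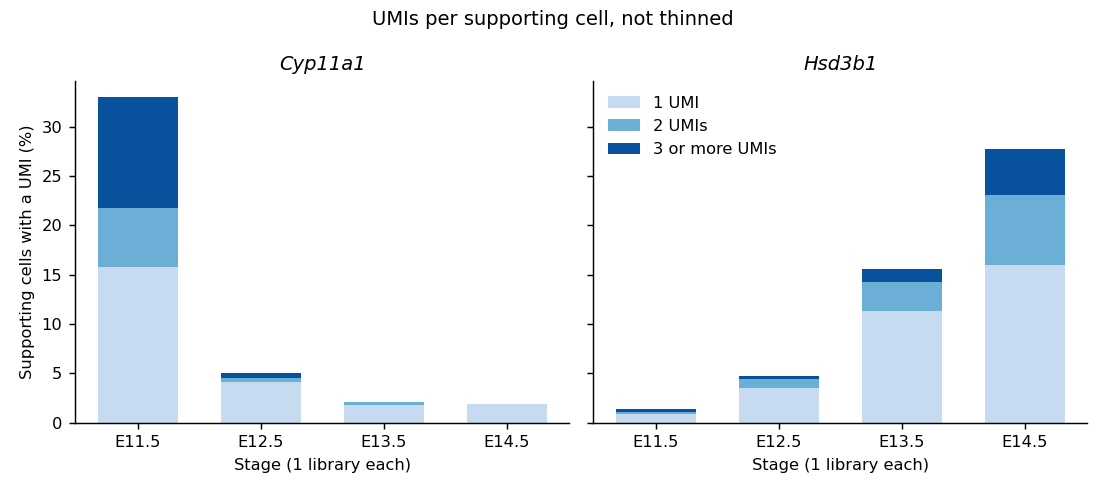
Share of supporting cells (vertical axis, percent, not thinned) with 1, 2 or at least 3 UMIs of Cyp11a1 (left) and Hsd3b1 (right) at the 4 stages (horizontal axes). The stacked bars reach 33.0% for Cyp11a1 at E11.5 and 27.7% for Hsd3b1 at E14.5, and the darkest segment, 3 or more UMIs, is 235 cells and 31 cells there.

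Cyp11a1 also followed how many of the supporting markers a cell had. At E11.5, cells of no other class with 0, 1 and 2 of the 5 markers had 0.387, 3.01 and 21.4 CPM, and those with 3, 4 and 5 had 55.3, 64.8 and 49.99 CPM. The level thus rose steeply up to the 3 markers that define the class and was not highest in the cells with all 5. Of single markers, Irx3, a homeobox gene, marked lower levels: E11.5 supporting cells with an Irx3 UMI had 40.2 CPM and those without 69.7 (log2 -0.79, -0.95 to -0.64). At E12.5 the values were 3.15 and 13.9 CPM (log2 -2.15, -2.65 to -1.65). Runx1 went the other way at E11.5, with 64.1 CPM in cells with a UMI and 40.6 without (log2 0.66, 0.48 to 0.85). So did Nr0b1, the nuclear receptor DAX1, at 67.8 and 47.6 CPM (log2 0.51, 0.37 to 0.65).

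**Figure D3:**
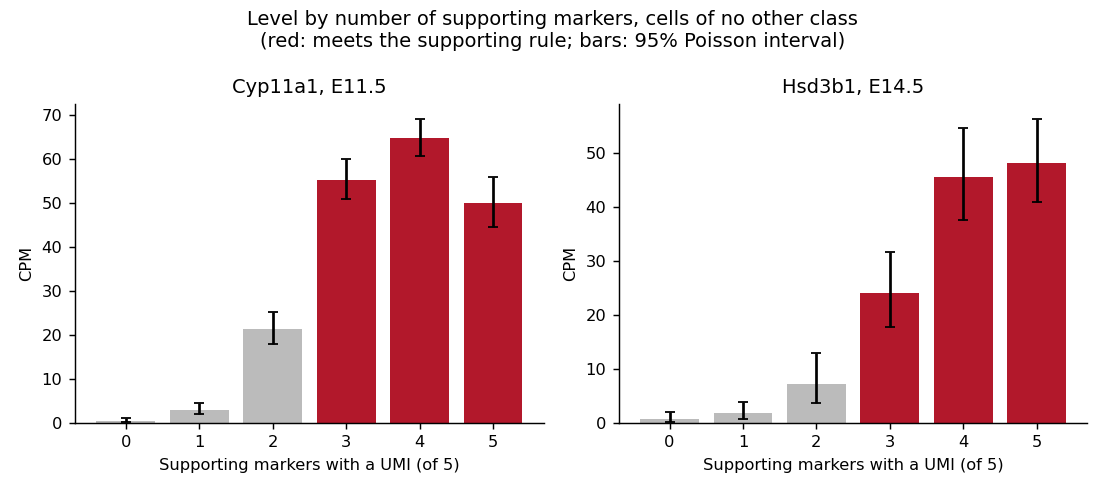
Level (vertical axes, CPM, from 0) of Cyp11a1 at E11.5 and Hsd3b1 at E14.5 in cells with 0 to 5 of the 5 supporting markers (horizontal axes) that met no other class rule; red bars meet the supporting rule and error bars are Poisson 95% intervals. Cyp11a1 peaks at 64.8 CPM with 4 markers, while Hsd3b1 goes from 0.774 CPM with none to 48.2 CPM with 5.

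The 235 E11.5 supporting cells with at least 3 Cyp11a1 UMIs were compared with the 1411 that had none, at median depths of 13844 and 13730 UMIs. Sprr2d, a small proline-rich protein (240 against 52.9 CPM), Cpa1, a carboxypeptidase (614 against 169), and the transglutaminase Tgm3 (258 against 77.1) had the highest ratios, followed by Siglecg, Klk1 and Plac1. Pf4 and Ppbp, which are platelet genes, had the lowest (2.32 against 167 and 0.870 against 55.5 CPM). Next was Ube2c, a mitotic ubiquitin-conjugating enzyme, at 14.51 against 127 CPM. Ccnb2 (9.57 against 50.3 CPM) and Ccnb1 (22.9 against 64.0), which are mitotic cyclins, Birc5 (17.7 against 79.2), Cenpa (17.1 against 72.8) and Cdc20 (17.1 against 53.4) were also among the 10 lowest ratios. Cells were picked by their own Cyp11a1 UMIs, so these values describe the cells and carry no test.

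Fdx1 (chr9:51943306-51963556, minus strand), the electron donor of CYP11A1 and of other mitochondrial enzymes, was found in every class. Supporting cells had 87.3, 64.5, 66.4 and 73.6 CPM, interstitial cells 47.9, 34.9, 34.6 and 40.1, surface epithelium 58.7, 45.8, 41.8 and 68.0, and germ cells 42.5, 62.6, 72.7 and 104 CPM. Supporting cells led at E11.5 and germ cells at E14.5. In supporting cells the change over the 3 days was -0.25 (-0.38 to -0.12) and was not called, so Fdx1 had no drop of the size seen for Cyp11a1. In germ cells it rose 2.45-fold (log2 1.29, 1.13 to 1.46). That call was lost with median-of-ratios scaling, at a log2 ratio of 0.89, since this scaling moved germ cell changes by -0.40. The median over all 7796 germ cell genes tested was 0.31. Without the cells with a Y-linked UMI the germ cell change stayed at 1.29, and without those with a UMI of Alas2, Hemgn or Hsd3b6 it was 1.33. The erythroid marker sum in germ cells was 581, 602, 473 and 2676 CPM, with none of the 4 at 0. The 6 interstitial markers summed to 16.4, 13.4, 18.2 and 42.9 CPM there and the 5 immune markers to 7.34, 5.81, 5.18 and 12.54 CPM, with Ptprc at 0 at E11.5, and their part in the rise was not tested. Of the comparisons between classes, supporting over germ cells at E11.5 was called (log2 1.04, 0.87 to 1.21), where 33.6% of all genes were higher in supporting cells.

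RefSeq (GRCm38.p6) gave a promoter window, from 250 bases before to 50 after a start site, near a protein-coding start of 2 members, Fdx1 and Hsd3b1. These 2 are shown because no other member had such a window. Fdx1 was present in all classes, and Hsd3b1 had few UMIs in any class but the supporting one. Both strands were searched for CAAGGNC, the core of the site that NR5A1 (SF-1, the nuclear receptor that drives many steroidogenic genes) is known to bind, and for GATAA, the core of the GATA site. CAAGGNC is in 17.8% and GATAA in 25.4% of 32851 windows of 300 bases. Capitals mark the matches, and the windows are printed 5′ to 3′ on the gene's strand, Fdx1 from chr9:51963553-51963852 and Hsd3b1 from chr3:98859745-98860044, both on the minus strand.
Fdx1: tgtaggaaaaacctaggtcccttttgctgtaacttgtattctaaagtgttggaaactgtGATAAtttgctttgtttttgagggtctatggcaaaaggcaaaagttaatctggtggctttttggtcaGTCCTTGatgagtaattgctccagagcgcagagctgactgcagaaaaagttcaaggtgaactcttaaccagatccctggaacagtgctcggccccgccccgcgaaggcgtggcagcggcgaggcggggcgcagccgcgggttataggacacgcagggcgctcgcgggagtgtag
Hsd3b1: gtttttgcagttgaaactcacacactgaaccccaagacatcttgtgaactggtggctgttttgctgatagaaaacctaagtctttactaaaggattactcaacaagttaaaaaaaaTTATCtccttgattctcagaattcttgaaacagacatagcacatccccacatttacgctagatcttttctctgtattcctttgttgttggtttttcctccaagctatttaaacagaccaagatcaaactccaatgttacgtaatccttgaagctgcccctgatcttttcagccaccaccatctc
The Fdx1 window holds GATAA at bases 60 to 64 and, read on the other strand, CAAGGNC at bases 127 to 133 (as GTCCTTG). The Hsd3b1 window holds GATAA read on the other strand at bases 117 to 121 (as TTATC) and no match to CAAGGNC. A match of these letters is a description of the window and does not show a bound site. Star, Cyp17a1 and Scarb1 had no window in the table, and the windows listed for Cyp11a1 were not near a protein-coding start.

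Hsd3b1 (chr3:98852194-98859794, minus strand) took the opposite course to Cyp11a1 in the same class. Supporting cells had 1.86, 5.22, 18.0 and 40.9 CPM (36.6 to 45.7 at E14.5), from 57, 137, 381 and 322 UMIs. The steps from E12.5 to E13.5 (log2 1.79, 1.503 to 2.08) and from E13.5 to E14.5 (log2 1.18, 0.97 to 1.40) were called, where 0.885% and 1.36% of all genes rose. Over the whole span the level rose 22.0-fold (log2 4.46, 4.05 to 4.89). Without the cells with a Y-linked UMI the rise was 4.52. The 505 E14.5 supporting cells without such a UMI had 42.7 CPM (37.6 to 48.3) and the 163 with one had 35.6 (27.8 to 45.0), which overlap.

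**Figure D4:**
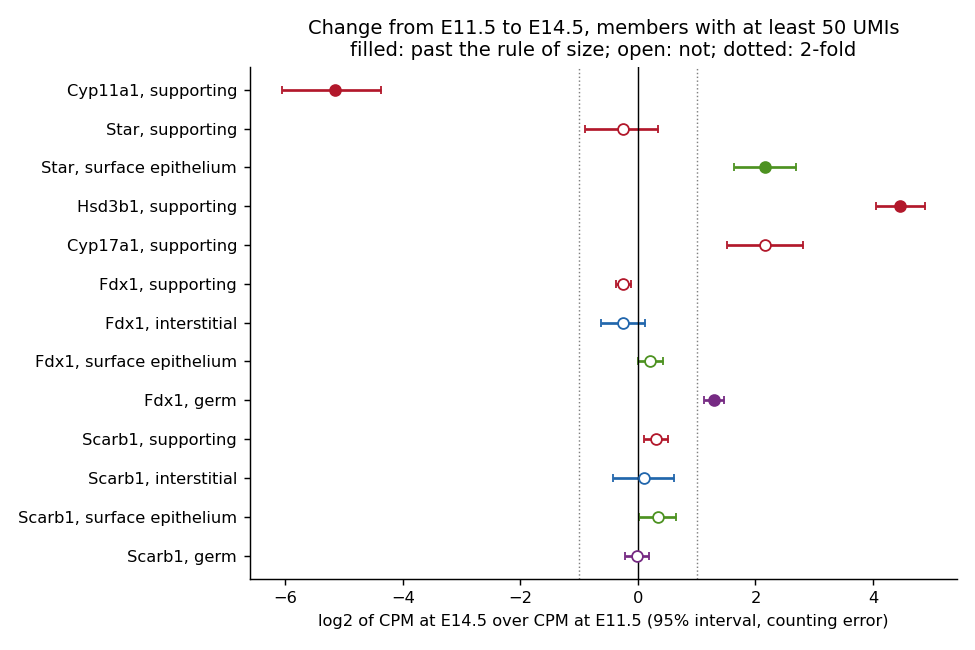
Change between E11.5 and E14.5 (horizontal axis, log2 of the CPM ratio, with its 95% interval from counting error) for each gene and class with at least 50 UMIs; filled points passed the rule of size and dotted lines mark a 2-fold change. The 4 filled points are Cyp11a1 at -5.15, Star in surface epithelium at 2.15, Hsd3b1 at 4.46 and Fdx1 in germ cells at 1.29.

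The other 3 classes had 0 to 16 UMIs of Hsd3b1 each per stage, while E14.5 cells that met several rules had 10.2 CPM, from 72 UMIs, and those that met none had 2.11 CPM, from 22. At E14.5 surface epithelium had 1.36 CPM, germ cells 0.427 CPM and interstitial cells 0 UMIs, where 3 UMIs would be 1.32 CPM. Supporting cells were higher by log2 ratios of 4.92 (3.68 to 6.55) and 6.58 (5.86 to 7.41). Against interstitial cells, with 3 UMIs as the floor, they were at least 31.0-fold higher, and the interval of the ratio from the counts began at log2 4.65. In these comparisons 7.88%, 29% and 13.8% of all genes were higher in supporting cells. At E13.5 the 3 comparisons were called too, against shares of 9.82%, 31% and 12.6% in the same order. A UMI was found in 1.38%, 4.76%, 15.5% and 27.7% of supporting cells by stage (0.570%, 2.11%, 7.89% and 17.2% thinned to 5000 UMIs), against 1.46% of surface epithelium and 0.707% of germ cells at E14.5. At E14.5, 107 cells had 1 UMI, 47 had 2 and 31 had 3 or more, with 7 at most.

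Hsd3b1 at E14.5 was 0.774, 1.87, 7.26, 24.0, 45.5 and 48.2 CPM in cells with 0 to 5 supporting markers, an order that rose up to 4 markers, with overlapping intervals for 4 and 5. Supporting cells with a UMI of Fst, the activin antagonist follistatin, had 47.1 CPM and those without 21.0 (log2 1.17, 0.68 to 1.69). With and without Irx3 the values were 44.2 and 18.9 CPM (log2 1.22, 0.56 to 1.98). The Irx3 order was not the same at all stages: Hsd3b1 was lower with an Irx3 UMI at E11.5 (0.780 against 2.52 CPM) and E12.5 (4.48 against 8.10), and higher at E13.5 (19.2 against 9.20), each with an interval of the ratio that left out 1. Runx1 went the other way at E14.5, with 37.4 CPM in cells with a UMI and 49.4 without (log2 -0.40, -0.74 to -0.06). For Nr5a1, which encodes SF-1, the values were 41.8 and 40.2 CPM, with an interval of the ratio that held 1 (log2 0.06, -0.27 to 0.38).

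The 78 E14.5 supporting cells with at least 2 Hsd3b1 UMIs were set beside the 483 with none, at median depths of 10271 and 9411 UMIs. The embryonic globins Hba-x and Hbb-y had the highest ratios, but 347 of the 353 Hba-x UMIs and 2801 of the 2887 Hbb-y UMIs lay in 1 cell. After them came Socs2, a suppressor of cytokine signalling (77.6 against 28.3 CPM), the metallothionein Mt3 (89.2 against 34.8) and Svs5 (53.5 against 23.1). Crip2 (22.0 against 68.2 CPM), the collagen Col1a2 (23.1 against 69.0), Dlk1 (26.2 against 71.3) and Nr2f2 (19.9 against 50.01) were among the 10 lowest. Like those for Cyp11a1, these values describe cells picked by the gene itself.

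Markers of other cells also changed in the supporting class, not all in the order of Hsd3b1. The summed level of 4 erythroid markers (Alas2, Hemgn, Hba-a1 and Hbb-bs) was 169, 1733, 1667 and 9314 CPM in stage order, and that of 5 endothelial markers was 31.8, 42.3, 80.9 and 104 CPM, with none of these genes at 0. The 5 immune markers summed to 6.86, 8.68, 2.41 and 30.8 CPM, with Ptprc at 0 at E13.5, the 6 interstitial markers to 180, 135, 152 and 248 CPM, and the 6 germ cell markers to 27.8, 24.4, 31.5 and 46.9 CPM. Their part in the rise was not tested. After cells with a UMI of Alas2, Hemgn or Hsd3b6 were left out, the Hsd3b1 change was 4.43 and that of Cyp11a1 -4.99. Endothelial cells themselves had 1.204 CPM of Hsd3b1 at E14.5, from 1 UMI, and erythroid cells (cells of none of the 4 classes with both Alas2 and Hemgn) 2.201 CPM, from 4 UMIs.

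Hsd3b6, a paralog of Hsd3b1 whose product is an enzyme of Leydig cells, was found in erythroid cells as well as in the classes. In supporting cells it had 0.948, 7.08, 3.64 and 0.763 CPM, with no order like that of Hsd3b1. The 80 cells with at least 5 Hsd3b6 UMIs were led by Hba-x, Hbb-bh1 and Hbb-y, and at E11.5, 44 of 45 such cells were erythroid by their markers. At the later stages 3 of 18, 3 of 13 and 0 of 4 were, while 9, 7 and 1 were supporting cells. Of the 45 cells at E11.5, 7 also had Hsd3b1, and the E11.5 erythroid class had 5.32 CPM of Hsd3b1, from 12 UMIs, above the 1.86 CPM of supporting cells at that stage. Of the 13 cells at E13.5, 4 also had Hsd3b1, and all 4 were supporting cells. Of the 50-base runs of Hsd3b1 transcripts 2.16% also occurred in another Hsd3b gene, and 0 of the 453 in their last 500 bases did, the region that a 3′ kit reads. For Hsd3b6 the shares were 15.5% and 35.2%, so Hsd3b6 counts are the less certain ones.

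Cyp17a1 (chr19:46667165-46673172, minus strand) was found at a very low level in supporting cells, with 0 or 1 UMI per stage in each of the other 3 classes. Supporting cells had 1.31, 3.16, 3.03 and 5.85 CPM (4.28 to 7.80 at E14.5), from 40, 83, 64 and 46 UMIs. The ratio of the last stage to the first was 4.47 (log2 2.16, 1.52 to 2.81), but no stage reached 10 CPM and the change was not called. The share of supporting cells with a UMI was 1.76%, 3.36%, 3.68% and 6.59% (0.618%, 1.54%, 1.73% and 3.74% thinned). Most of those cells had 1 UMI: at E13.5 all 64 did, at E14.5 42 of 44 and at E12.5 63 of 70, where 1 cell had 8. At E14.5 the level was 5.62 CPM in supporting cells without a Y-linked UMI and 6.53 CPM in those with one, with overlapping intervals. Aromatase, the next enzyme on the way to estrogens, had 2 Cyp19a1 UMIs in supporting cells at E12.5 and 0 at the other stages.

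UMIs of Star and the 3 enzymes Cyp11a1, Hsd3b1 and Cyp17a1 were rarely found together in a cell. A UMI of at least 2 of Cyp11a1, Star, Hsd3b1 and Cyp17a1 was found in 175 of the 18774 cells, 74, 29, 40 and 32 in stage order, and a UMI of at least 3 of them in 13. The most frequent pair was Cyp11a1 with Star at E11.5 (37 cells) and Hsd3b1 with Cyp17a1 at E14.5 (19 cells). Supporting cells made up 57, 25, 31 and 22 of the 175, or 2.71%, 1.20%, 1.78% and 3.29% of their class. No interstitial or germ cell was among them. Of E11.5 supporting cells with Cyp11a1 3.75% had Star, against 5.95% of those without, with intervals of 2.46% to 5.44% and 4.78% to 7.32%. Of the same cells 72.2% had Fdx1 against 64.4%, with intervals that do not overlap (68.7% to 75.5% and 61.9% to 66.9%) at median depths of 13901.5 and 13730 UMIs. Of E14.5 supporting cells with Hsd3b1 8.11% had Cyp17a1, against 6.00% of those without, with overlapping intervals.

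Against all other kept cells, the 175 had the highest ratios for Cpa1 (259 against 40.0 CPM), Tgm3 (73.8 against 14.8) and Akr1cl, an aldo-keto reductase (554 against 154), followed by Gm2044, Inha, Adam8, Susd3, Gadd45g, Fndc5 and Clu. Cpa1 and Tgm3 were also among the genes highest beside Cyp11a1 at E11.5. The 175 cells are mostly supporting cells and mostly of E11.5 and E13.5, so this comparison mixes class and stage.

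Genes with a pattern over the 16 sums of class and stage most like that of each member were ranked by Pearson r of log2(CPM + 1) among 14307 genes. The 16 sums come from 4 libraries, so r is a description. For Cyp11a1 these were Tgm3 (0.97), Tph2 (0.96) and Fabp6 (0.96), for Star Irf5 (0.93), Car9 (0.92) and Gm21190 (0.92), and for Hsd3b1 Hao2 (0.98), Chit1 (0.98) and Hamp2 (0.98). Cyp17a1 was most like A430078G23Rik (0.99), Hao2 (0.99) and 1810064F22Rik (0.97), Fdx1 like Rec8 (0.93), Tm2d3 (0.93) and Tmem147 (0.93), and Scarb1 like Dlgap3 (0.87), March9 (0.87) and Smyd2 (0.86). Between members, r was 0.96 for Hsd3b1 with Cyp17a1 and 0.36 for Hsd3b1 with Cyp11a1. Outside supporting cells Cyp17a1 had 0 or 1 UMI per sum and Hsd3b1 at most 16, so their r mostly sets supporting cells against the rest. Some of the ranked genes were low in every sum. The highest values were 2.29 CPM for A430078G23Rik, 3.52 for Car9, 3.79 for Fabp6 and 4.32 for Hao2.

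The wider pathway in supporting cells was described over 4 lists, again between E11.5 and E14.5. The median log2 ratio of all 8399 genes tested was 0.03, and 7.64% of them were called higher and 3.25% lower. These shares stand beside the supporting counts below, and no list was tested against them. Of 15 genes of cholesterol supply 13 had enough UMIs, 2 rose and 0 fell, with a median of -0.17. The 2 were Npc1, which moves cholesterol out of lysosomes (9.83, 26.6, 32.0 and 42.2 CPM by stage, log2 2.10), and Abca1, a cholesterol exporter (10.3, 16.1, 26.1 and 26.4 CPM, log2 1.36). The most abundant in any class were Npc2, the lysosomal partner of NPC1 (448 CPM in interstitial cells at E11.5), Soat1, which esterifies cholesterol (218 CPM in supporting cells at E11.5), and Tspo, a mitochondrial outer membrane protein (150 CPM in surface epithelium at E14.5). In surface epithelium 12 genes of this list were tested, 1 rose and 1 fell, with a median of -0.61. Of all genes tested there 6.26% were called higher, and the share called lower is not given here. Tspo rose there (65.5, 65.0, 76.4 and 150 CPM, log2 1.20), and Insig1, which holds back cholesterol synthesis, fell (27.3, 16.7, 12.4 and 7.32 CPM, log2 -1.90).

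Of 6 electron partners all were tested, 0 rose and 1 fell, with a median of -0.37. The 1 was Cyb5b, a mitochondrial cytochrome b5 (142, 91.1, 72.9 and 66.4 CPM, log2 -1.10). Cyb5a, which aids CYP17A1, was the most abundant (583 CPM in supporting cells at E11.5), ahead of Cyb5r3 (158 CPM in interstitial cells at E11.5). Fdxr, the reductase that feeds FDX1, had 67.5, 59.9, 72.1 and 91.3 CPM in supporting cells and was not called there (log2 0.44).

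Of 20 later steroid enzymes 17 were in the table and 5 had enough UMIs. Of these 1 rose, Hsd17b7 (4.80, 7.65, 7.14 and 10.6 CPM, log2 1.14), which acts in cholesterol synthesis as well as on estrone, and 0 fell, with a median of -0.37. The most abundant were Hsd17b10 (311 CPM in supporting cells at E11.5), Hsd17b12 (84.6 CPM in interstitial cells at E11.5) and Hsd11b2, which inactivates glucocorticoids (74.3 CPM in interstitial cells at E11.5). With median-of-ratios scaling the change of Hsd17b7 was 0.99, which ends the call.

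Of 23 regulators and hormone receptors 22 were in the table and 13 were tested, of which 2 rose and 1 fell, with a median of -0.37. Mrap, the accessory protein of the corticotropin receptor, rose most (1.93, 4.95, 10.3 and 14.7 CPM, log2 2.94), followed by Nr3c1, the glucocorticoid receptor (4.48, 5.90, 8.18 and 16.8 CPM, log2 1.91). Nr0b1 fell from 77.9 to 26.2, 17.9 and 24.0 CPM (log2 -1.70), with the largest step where Cyp11a1 also fell. Nr5a1 itself had 75.0, 68.7, 79.7 and 58.0 CPM and was not called (log2 -0.37). Wt1 (587 CPM in surface epithelium at E13.5), Nr2f2 (381 CPM in interstitial cells at E13.5) and Gata6 (229 CPM in surface epithelium at E13.5) were the most abundant. In the interstitial class, the only genes called from the 4 lists were Esr1, an estrogen receptor (2.59, 5.70, 9.84 and 18.5 CPM, log2 2.84), and Nr3c1 (16.3, 25.5, 28.5 and 34.4 CPM, log2 1.08). Of all genes tested in that class, 8.14% were called in either direction.

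**Figure D5:**
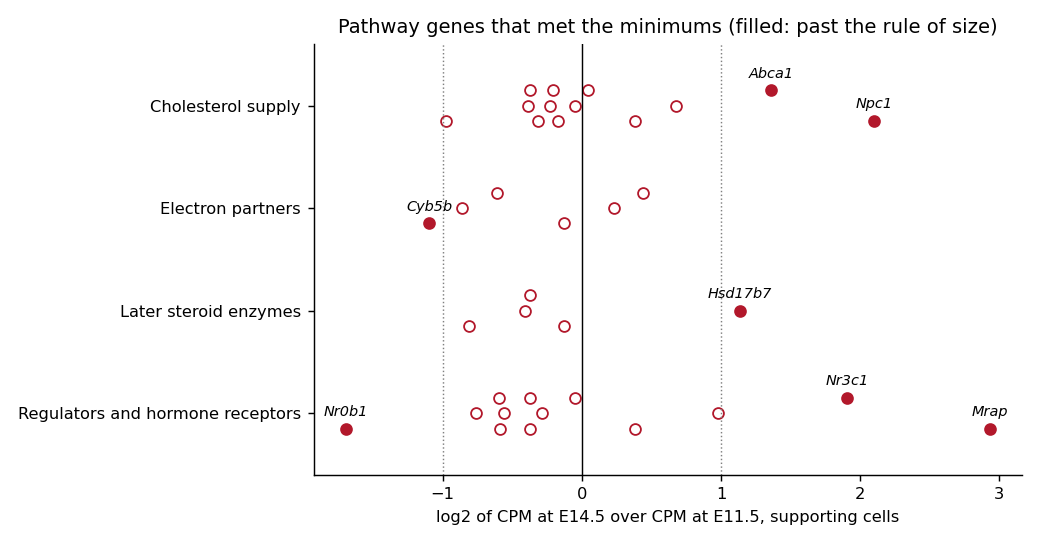
Change between E11.5 and E14.5 in supporting cells (horizontal axis, log2 of the CPM ratio) for each tested gene of the 4 lists (vertical axis, rows of points spread only for legibility); filled, named points passed the rule of size and dotted lines mark a 2-fold change. Mrap is farthest right at 2.94 and Nr0b1 farthest left at -1.70.

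Adrenal cortex cells and Leydig cells are the other fetal sources of these transcripts. Of 8 adrenal markers 6 were analysed, and their summed level in supporting cells was 82.3, 37.0, 48.5 and 84.1 CPM, made up largely of Nr0b1, Hsd3b1 and Mrap. Cyp21a1, the defining 21-hydroxylase, had 0 UMIs in supporting cells at every stage, Mc2r, the corticotropin receptor, had 0.490, 0.152, 0.236 and 0.127 CPM, and Akr1b7 0.163, 0.495, 2.17 and 4.32 CPM. In all 18774 cells only 3 had Cyp21a1, all at E11.5 and in no class, with 17 UMIs between them, and 2 of the 3 also had Cyp11a1 and Hsd3b1. Cyp11b1 and Cyp11b2 were not analysed here. The 5 genes listed as Leydig markers, not checked here in fetal Leydig cells, summed to 5.82, 12.52, 10.8 and 10.4 CPM in supporting cells. Of these, Insl3, the defining Leydig hormone, had 9, 0, 2 and 1 UMIs, Lhcgr, the receptor for luteinizing hormone, had 2.16, 1.90, 4.02 and 3.43 CPM, and Hsd17b3, the testicular enzyme that makes testosterone, 1.11, 0.381, 0 and 0.254 CPM. Cyp17a1 and Hsd3b6, the other 2, are given above. Fewer expressing cells and less RNA in each cell cannot be told apart in these sums, nor by the shares of cells with a UMI, which depend on depth.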

How the data were processed

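Single-cell RNA of 4 libraries, 1 per stage, was analysed. The 10x 3′ kit is named in the labels' protocols, and Cell Ranger 2.2.0 and the build mm10 are named, with no role, in the submitters' processing notes. How cells were called and filtered is not given in the sources used here. The deposited values are natural logs, ln(1 + a gene's UMIs per 10000 in that cell), as read from the values themselves, whereas the plan had assumed counts. All 69792436 values above 0 (100%) came out as whole UMIs at a tolerance of 1e-06, so UMIs were recovered and used. Each cell's prefix gave its library, with 0 cells unmatched.

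Of 19387 cells, 5 with over 20% mitochondrial UMIs and 608 doublets were removed (0 had under 200 genes). Doublets were scored in each library from 2 simulated doublets per cell, with 2000 variable genes and 30 components, and called at a score over 0.2. A first version with an automatic threshold called 139, 238, 443 and 4754 cells (99.3% of the E14.5 library) and was replaced after these counts were seen. A cell that met exactly 1 class rule entered the class.

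For each class and stage, UMIs were added up and given as CPM with exact Poisson intervals, shares with Clopper-Pearson intervals, and log2 ratios with the exact binomial split of the counts, all at 95%. The rule of size (at least 50 UMIs, 10 CPM, a ratio of 2, an interval without 1) was applied to every gene. It was also run on simulated sums of supporting cells, E14.5 against E11.5, drawn with counting error only. It called 100% of 35 genes changed 2.5-fold, 44 changed 4-fold and 45 changed 8-fold. It called 0% of 7745 unchanged genes and 0% of 47 changed 1.5-fold, which the ratio of 2 largely fixes beforehand. The draws held no differences between cells or libraries, so these shares do not give the rate of wrong calls between libraries. Shares were also thinned to 5000 UMIs per cell, with 0 cells below that depth. No p-value is given. Named genes are the 6 members; of each list the 3 with the highest CPM in any sum, those past the rule in supporting or interstitial cells (Fdxr, Nr5a1, Cyp19a1 and the surface epithelium changes of Tspo and Insig1 were added after values were seen), and every adrenal or Leydig marker; the 3 genes most like each member (at least 100 UMIs); and the 10 leading genes of cells with several of Cyp11a1, Star, Hsd3b1 and Cyp17a1 (at least 50 CPM, in at least 20% of them). Gene positions came from GENCODE vM21. Some genes of the lists are not reported here and were left out of the lists, sums and erythroid class. The members and lists were chosen with earlier results of these data known. The splits by marker, the comparisons of cells by a member's UMIs and the counts of UMIs per cell were added after values were seen. So were the co-detection shares and the Y-linked, Hsd3b6, globin and Cyp21a1 checks. The alternatives without cells with a UMI of a Y-linked gene, or of Alas2, Hemgn or Hsd3b6, were added then too. Python 3.11.15, numpy 2.4.6 and scipy 1.17.1 were used.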

Additional observations from a re-analysis of the deposited data

Results flagged for a closer look

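The change of Fdx1 from E11.5 to E14.5 went in opposite directions in 2 classes of the same libraries. It was -0.25 on the log2 scale in supporting cells (87.3 to 73.6 CPM) and 1.29 in germ cells (42.5 to 104 CPM). With 1 library per stage the difference between the classes was not tested. It kept both directions with median-of-ratios scaling, at -0.39 and 0.89.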

How the results depend on the processing

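The 4 calls from E11.5 to E14.5 were recomputed under each alternative. Cells counted in every class whose rule they met gave log2 changes of 0.45 for Star in supporting cells, 1.62 for Star in surface epithelium and 3.99 for Hsd3b1. At least 4 supporting or germ markers gave 0.41 for Star in supporting cells and 5.06 for Hsd3b1, so the sign of the uncalled Star change in that class depends on the class rule. Median-of-ratios scaling gave -0.39 and 0.89 for Fdx1 in supporting and germ cells and -0.42 for Scarb1 in germ cells, and left 3 members called. Without cells with 2 of the 4 genes Cyp11a1, Star, Hsd3b1 and Cyp17a1, Hsd3b1 changed by 5.0004. The mean of the deposited ln values over cells, another scale, changed by -0.289 for Cyp11a1, 0.232 for Hsd3b1, 0.0325 for Cyp17a1, 0.0197 for Scarb1 and -0.0687 for Fdx1 in supporting cells, 0.116 for Star in surface epithelium and 0.317 for Fdx1 in germ cells. A ratio of at least 4 with 20 CPM left 96 genes higher and 71 lower in supporting cells, from 642 and 273, and 3 of the 4 member calls, since Fdx1 in germ cells changed 2.45-fold. Shares of cells with a UMI depend on depth: not thinned and thinned to 2000 UMIs they were 33.0% and 9.17% for Cyp11a1 at E11.5, and at E14.5 27.7% and 8.68% for Hsd3b1, 19.9% and 4.09% for Star in surface epithelium, and 6.59% and 1.80% for Cyp17a1, against 17.4%, 17.2%, 10.8% and 3.74% at 5000. Cells with several of these genes numbered 13 with at least 3 and 36 after thinning, from 175. A minimum of 10 UMIs, doublets kept and a common minimum of 9791 UMIs per cell moved no log2 change by more than its interval. They ended no call. The same held without cells with a Y-linked UMI, and without cells with a UMI of Alas2, Hemgn or Hsd3b6. The last setting left in cells whose erythroid UMIs were of globins alone. In that setting the uncalled Star change in supporting cells was 0.02. No paired analysis was possible because each stage is 1 library, and for the same reason no library could be left out. Depth limits the low sums: Cyp17a1 reached 10 CPM at no stage, and Cyp11a1 had 41 and 13 UMIs in supporting cells at E13.5 and E14.5.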
